A study of Mus musculus with 6 samples.

Results

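Microtubules are hollow polymers of α- and β-tubulin that form the tracks of axons and dendrites. Kinesins carry cargo mostly towards their plus ends and cytoplasmic dynein, with its cofactor dynactin, towards their minus ends. Microtubule-associated proteins (MAPs), doublecortins and navigators bind the lattice or its growing ends, and stathmins hold free tubulin. The 84 genes described here are the kinesins, kinesin light chains, tubulins, cytoplasmic dynein and dynactin subunits, stathmins, navigators and a set of MAPs and doublecortins. They were picked by a rule on gene symbols from 19938 genes with a probe set of their own. The rule was set with earlier results of these data known. Of the 9 members with several probe sets, 4 had probe sets on opposite sides of 0 (Kif14, Kif4-ps, Stmn1 and Stmn3), and the brighter probe set was used for each.

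Forebrain cortex of adult C57BL/6 mice was profiled with 1 Affymetrix whole-transcript array per animal. The 3 animals labelled Dicer KO carry CamKII-Cre/+ and Dicer flox/flox, so that Cre from the CamKII promoter removes the microRNA-processing enzyme Dicer in excitatory forebrain neurons. The 3 littermate controls are either CamKII-Cre/+ with Dicer flox/+ or Cre-negative with Dicer flox/flox, and which genotype each control has is not given. Some controls may therefore carry Cre and 1 deleted allele, and the cortex of every animal also holds cells in which the driver is silent. Values are log2 expression, and a difference is the mean of the labelled KO arrays minus that of the controls, with its moderated standard error (SE).

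The 6 arrays had medians between 7.13 and 7.22. Dicer1 did not check the labels, since it read 9.46 to 9.68 in the labelled KO arrays against 9.17 to 9.21 in the controls. It was thus higher, not lower, in the labelled KO arrays, by 0.39 ± 0.087 (SE; limma adjusted p = 0.102). Every difference here rests on the labels as given. The cortical markers Slc17a7 and Camk2a read between 12.06 and 12.37 and between 12.65 and 13.25, above every array median. Excitatory neuron markers (13 of 14 measured) had list means, relative to the control mean, of -0.29 to -0.16 in the labelled KO arrays and -0.072 to 0.052 in the controls. Their list medians overlapped, at -0.18 to 0.0035 against -0.073 to 0.067. Of these markers 9 were below 0 and 4 above, with Lamp5 lowest at -1.19 (limma adjusted p = 0.0548). Nrgn, at -0.60, was the 1 marker of the list with a limma adjusted p under 0.05 (0.0413), where 0.281% of all genes had this. At an unadjusted p under 0.05, 4 of the 13 were lower (30.8%, where 7.39% of all genes were) and 0 higher. Astrocyte markers (11 of 11 measured) had list means of 0.045 to 0.51 against -0.096 to 0.080, with labelled KO array 3 highest. Control array 1 stood apart: its olfactory bulb and neuroblast markers (16 of 16 measured) averaged 0.76, against -0.47 to -0.25 on the other 5 arrays. In whole tissue, fewer cells of a type and less RNA per cell cannot be told apart. Sex, read from a Y-linked transcript, was not evenly split between the groups. With sex as a covariate some differences moved, that of Kif21b from 0.51 to 0.42. Others hardly did, that of Nav3 going from 0.53 to 0.54 and that of Map1a from -0.49 to -0.48. Sex and group are partly confounded.

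The navigator gene Nav3 was the 1 member of 84 that differed past the threshold of an adjusted p of 0.05, where 0.281% of all genes did. It rose 1.44-fold in the labelled KO arrays, in the direction in which 0.0903% of all genes passed. The MAP gene Map1a, with the largest negative difference at 1.41-fold lower, did not pass. At an unadjusted p under 0.05 there were 10 lower members, a share of 11.9% where all genes gave 7.39%, and 5 higher ones, 5.95% where all genes gave 7.01%. The lower ones were Map1a, Tuba4a, Stmn2, Stmn3, Dctn3, Dync1li1, Kif5a, Kif3c, Kif9 and Kif23, and the higher ones Nav3, Kif21b, Kif1c, Map7 and Kif1b. The groups did not overlap in 17 members, 20.2%, where 20.3% of all genes showed this: 13 were lower (15.5%, where 11.0% of all genes were) and 4 higher (4.76%, where 9.30% were). The median difference over the 84 members was -0.046, beside -0.0092 for all genes, and 49 members were below 0 (58.3%, where 52.7% of all genes were).

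**Figure D1:**
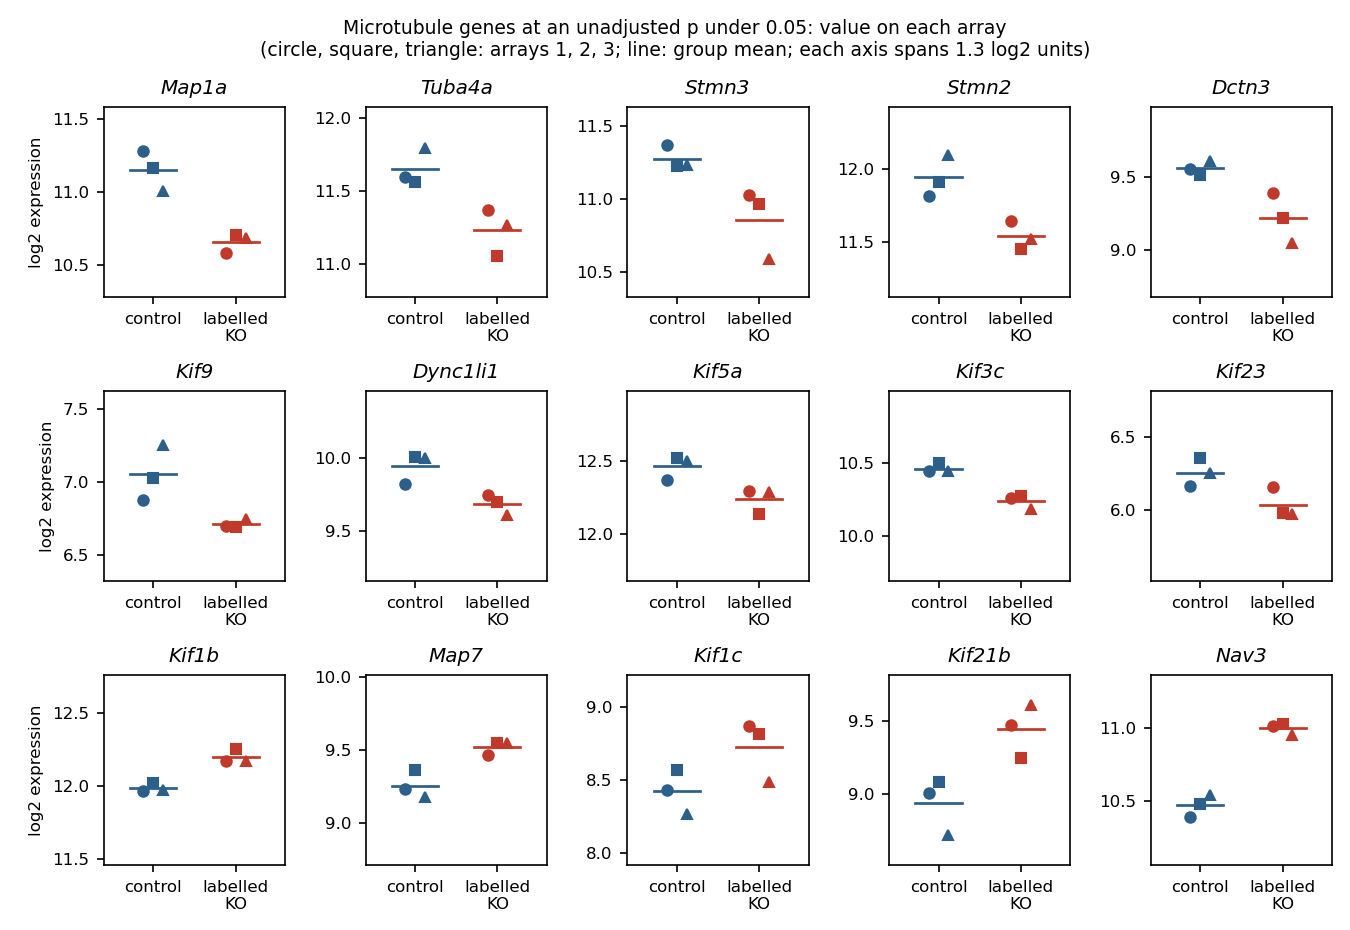
Log2 expression on each array (points; circle, square and triangle are arrays 1, 2 and 3) of the 15 microtubule genes at an unadjusted p under 0.05, with group means as lines and control arrays at the left of each panel. The groups do not overlap in these panels except for Kif1c, where labelled KO array 3 at 8.49 lies below control array 2 at 8.57; Nav3 alone passed the adjusted threshold.

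The deposited annotation gives no promoter positions, so upstream sequence was taken from RefSeq for assembly GRCm38.p6, which matched 65 of the 84 members by symbol. The 250 bases before the start of 3 lower genes of separate roles (Map1a, Tuba4a, Stmn3) and 1 higher gene (Map7) are shown, to set genes with differences of opposite sign side by side. Capitals mark the GC box, searched as GGGCGG, and the CCAAT box, searched as CCAAT, both on either strand. The TATA box, searched as TATAAA on either strand, was also looked for.
Map1a, chr2:121289352-121289601, plus strand: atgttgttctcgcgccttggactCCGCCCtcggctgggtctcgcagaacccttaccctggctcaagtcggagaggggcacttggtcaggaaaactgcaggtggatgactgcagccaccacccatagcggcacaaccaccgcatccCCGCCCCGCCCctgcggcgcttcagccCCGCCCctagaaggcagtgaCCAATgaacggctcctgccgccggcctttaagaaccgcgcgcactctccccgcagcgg
Tuba4a, chr1:75219295-75219544, minus strand: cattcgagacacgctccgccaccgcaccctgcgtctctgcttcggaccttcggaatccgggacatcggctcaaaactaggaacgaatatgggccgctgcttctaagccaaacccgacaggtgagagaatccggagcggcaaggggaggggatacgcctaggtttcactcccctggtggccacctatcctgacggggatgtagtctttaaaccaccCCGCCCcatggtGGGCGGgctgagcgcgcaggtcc
Stmn3, chr2:181314501-181314750, minus strand: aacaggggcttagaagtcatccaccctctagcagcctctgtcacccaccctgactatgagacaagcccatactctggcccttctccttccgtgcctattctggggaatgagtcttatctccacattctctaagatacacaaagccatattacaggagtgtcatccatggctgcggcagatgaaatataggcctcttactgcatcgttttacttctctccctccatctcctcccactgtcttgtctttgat
Map7, chr10:20148670-20148919, plus strand: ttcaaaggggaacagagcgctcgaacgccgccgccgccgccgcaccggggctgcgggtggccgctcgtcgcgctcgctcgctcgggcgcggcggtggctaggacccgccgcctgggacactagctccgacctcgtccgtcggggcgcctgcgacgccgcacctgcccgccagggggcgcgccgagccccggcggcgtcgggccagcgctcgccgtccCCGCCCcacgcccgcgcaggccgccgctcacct

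The Map1a window holds 4 matches to the GC box, a pair of which overlap, and 1 CCAAT box. The Tuba4a window holds 2 GC boxes and the Map7 window 1, while none of the searched motifs occur in the Stmn3 window. Of 32817 such windows, 32.7% hold a GC box, 33.8% a CCAAT box and 12.4% a TATA box. The Map7 window is the richest in CG dinucleotides, with 47, against 21 for Map1a, 20 for Tuba4a and 3 for Stmn3, where the median window has 6. A match to these letters is a description and not a binding site. Among the members at an unadjusted p under 0.05, no window was matched for Nav3, Kif21b, Stmn2 and Kif5a.

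Navigators are proteins of growing microtubule ends that act in neurite outgrowth and axon guidance. Nav3 read 11.02, 11.03 and 10.95 in labelled KO arrays 1 to 3 and 10.39, 10.48 and 10.54 in control arrays 1 to 3. The labelled KO values span less than 0.1 and all lie above the controls. The difference was 0.53 ± 0.083 (SE), with means of 11.00 ± 0.041 and 10.47 ± 0.073 (SD, n = 3 each; limma adjusted p = 0.0483). The call was lost when any 1 array other than labelled KO array 3 was left out (adjusted p from 0.110 to 0.204, and 0.0456 without labelled KO array 3), and with the sex of the animal, read from a Y-linked transcript, as a covariate (adjusted p = 0.148), while the difference stayed between 0.49 and 0.56.

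The other navigators did not pass. Nav1 read 9.12, 9.22 and 9.31 against 9.14, 9.08 and 8.73, a difference of 0.23 ± 0.12 (SE; adjusted p = 0.432). Nav2 read 8.66, 8.62 and 8.61 against 8.89, 8.69 and 8.17, a difference of 0.045 with a 95% interval from -0.33 to 0.42. In both genes the groups overlapped and control array 3 was lowest. Without control array 3 Nav1 was at 0.11 and Nav2 at -0.16. Whether Nav3 differs in its change from the other navigators was not tested.

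The kinesins went both ways. Of 41, 22 were below 0 and 19 above, with a median of -0.010, and none passed over all genes. The 20 transport kinesins and light chains had a median of 0.060, with 2 lower and 3 higher at an unadjusted p under 0.05, where all genes gave 7.39% and 7.01%. Kif21b, a plus-end motor of the kinesin-4 family found in dendrites, read 9.47, 9.25 and 9.61 in the labelled KO arrays and 9.01, 9.08 and 8.72 in the controls. The groups did not overlap, and labelled KO array 2 came closest to the controls. Its difference was 0.51 ± 0.13 (SE), 1.42-fold (adjusted p = 0.130). Its relative Kif21a was at -0.046 ± 0.090 (SE); this gene was chosen after its value was seen, and the difference between these genes was not tested.

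Kinesin-1, which carries vesicles, mitochondria and RNA along axons, has 3 heavy chain genes. Kif5a, the neuron-specific chain mutated in hereditary spastic paraplegia, read 12.30, 12.14 and 12.29 against 12.37, 12.52 and 12.50. All labelled KO values lay below all controls, by a mean of 0.22 ± 0.089 on the log2 scale (SE; adjusted p = 0.301). The ubiquitous chain Kif5b read 11.06, 10.86 and 11.22 against 10.69, 10.97 and 10.99, with overlapping groups and a difference of 0.16 ± 0.12 (SE). Leaving out control array 1 gave 0.064, labelled KO array 3 gave 0.073 and labelled KO array 2 gave 0.26. Kif5c, the other neuron-enriched chain, was at -0.046, with a 95% interval from -0.25 to 0.15. The light chain Klc1, which links the motor to cargo, was at -0.013, with an interval from -0.22 to 0.20.

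The kinesin-3 motors carry synaptic vesicle precursors and mitochondria. Kif1b read 12.17, 12.25 and 12.17 against 11.97, 12.02 and 11.97, so the groups were narrow and apart, at 0.21 ± 0.079 (SE; adjusted p = 0.270). Kif1c read 8.87, 8.82 and 8.49 against 8.44, 8.57 and 8.27, at 0.30 ± 0.13 (adjusted p = 0.317). Labelled KO array 3 lay within the range of the controls. A dimmer probe set of Kif1c also read higher, by 0.43 ± 0.32 (SE). Kif1a, the main carrier of synaptic vesicle precursors, was at 0.048, with an interval from -0.13 to 0.23.

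Kinesin-2 is made of Kif3a with Kif3b or Kif3c. Kif3c, the neuronal partner, read 10.26, 10.27 and 10.19 against 10.44, 10.50 and 10.44. The 2 groups were apart and each spanned less than 0.1, with a difference of -0.22 ± 0.079 (SE; adjusted p = 0.247). Kif3a was at -0.14 ± 0.095 (SE), with overlapping groups, and lay between -0.21 (without control array 1) and -0.080 (without control array 3) with 1 array left out. The 9 transport kinesins and light chains not named lay between -0.16 and 0.19, none at an unadjusted p under 0.05.

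Kinesins of cell division and cilia read low: 13 of the 14 mitotic and microtubule-depolymerising kinesins and 6 of the 7 cilium and other kinesins had means under the median gene (7.65). RMA shrinks differences of such dim transcripts. Kif23, a midbody motor, read 6.16, 5.98 and 5.98 against 6.16, 6.35 and 6.25, at -0.22 ± 0.094 (SE; adjusted p = 0.336). Labelled KO array 1 and control array 1 read almost the same. Kif9, a motor of cilia and flagella, read 6.69, 6.69 and 6.75 against 6.88, 7.03 and 7.25, at -0.34 ± 0.11 (adjusted p = 0.199). The labelled KO values were close together and the spread lay in the controls. The other 6 cilium and other kinesins lay between -0.20 and 0.022. The other 13 mitotic and depolymerising kinesins lay between -0.13 and 0.26, and dividing cell markers (9 of 10 measured) had list means of -0.0063 to 0.13 in the labelled KO arrays against -0.064 to 0.035.

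**Figure D2:**
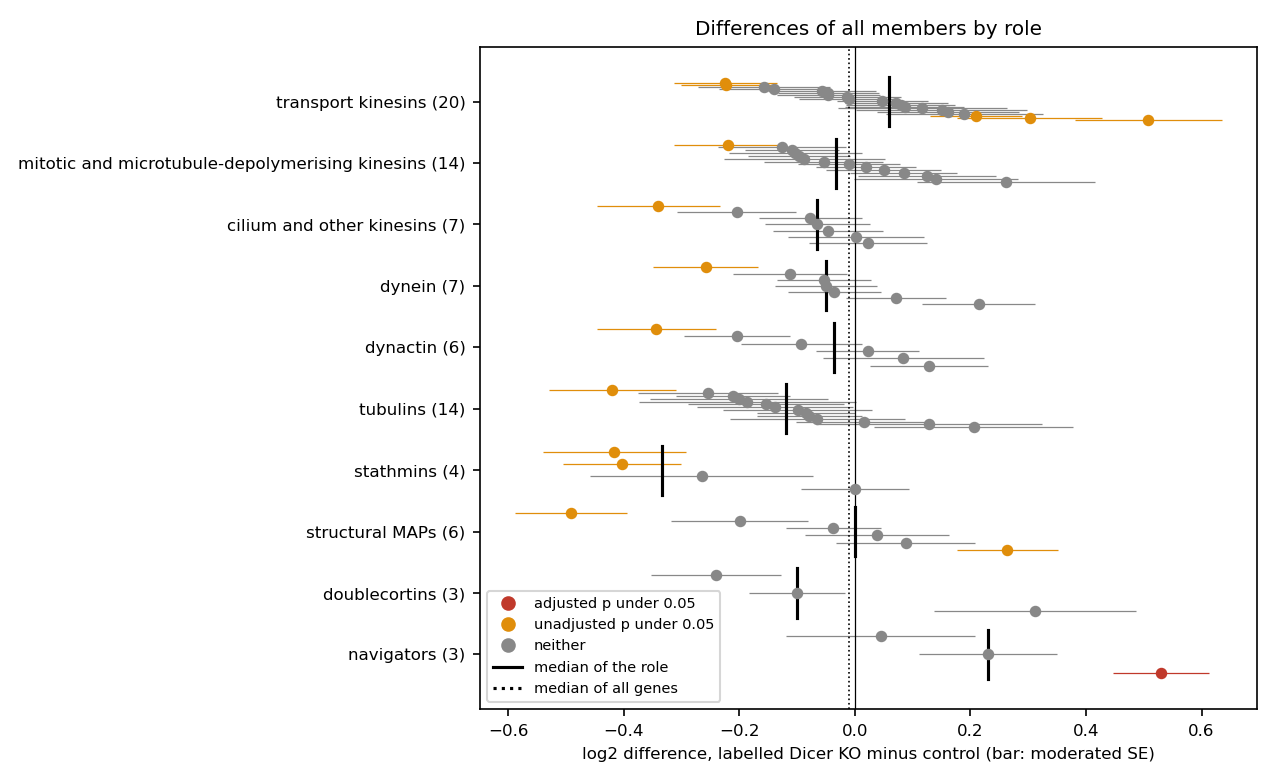
Log2 difference (labelled Dicer KO minus control, x axis; bars are moderated SEs) of each of the 84 members, grouped by role, with the number of members in parentheses. Black lines are role medians and the dotted line is the median of all genes; the stathmin median (-0.33) lies lowest, the navigator median (0.23) highest, and Nav3 is the single red point.

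In the retrograde motor, 5 of 7 cytoplasmic dynein genes were below 0, with a median of -0.050, and none passed. Dync1li1, a light intermediate chain that binds cargo adaptors, read 9.75, 9.70 and 9.61 against 9.82, 10.01 and 9.998. The groups did not overlap, and the difference was -0.26 ± 0.090 (SE; adjusted p = 0.241). The heavy chain Dync1h1, which holds the motor domain, was at -0.053, with an interval from -0.24 to 0.13. Dync1li2, the other light intermediate chain and chosen after its value was seen, was at 0.21 ± 0.098 (SE; adjusted p = 0.365), and the difference between the light intermediate chains was not tested. The other 4 dynein genes lay between -0.11 and 0.071.

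Dynactin joins dynein to cargo, and 3 of its 6 measured genes were below 0. Dctn3, a small subunit of the shoulder complex, read 9.39, 9.22 and 9.05 against 9.56, 9.52 and 9.61. All labelled KO values were below the controls, with labelled KO array 3 lowest, and the difference was -0.34 ± 0.10 (SE; adjusted p = 0.187). Dctn1, the subunit p150Glued that binds microtubules, was at 0.022, with an interval from -0.18 to 0.22. The other 4 subunits lay between -0.20 and 0.13.

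Of 14 tubulin genes, 11 were below 0, with a median of -0.12, and none passed. Tuba4a, an α-tubulin without the usual terminal tyrosine, read 11.37, 11.05 and 11.27 against 11.60, 11.56 and 11.79. The groups did not overlap, and the difference was -0.42 ± 0.11 (SE; adjusted p = 0.140), 1.34-fold lower. Tubb3, the neuron-specific β-tubulin, read 10.45, 10.26 and 10.71 against 10.76, 10.63 and 10.78. The difference was -0.25 ± 0.12 (SE; adjusted p = 0.385), and labelled KO array 3 lay among the controls. Without that array Tubb3 was at -0.37 (adjusted p = 0.133), and with labelled KO array 2 left out at -0.15 (adjusted p = 0.702). Tuba1a, the main α-tubulin of neurons, was at 0.015, with an interval from -0.25 to 0.28. The other 11 tubulin genes lay between -0.21 and 0.21.

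Labelled KO array 2 was the lowest of the 6 arrays in 10 of the 14 tubulin genes, in 30 of the 84 members and in 4182 of all 19938 genes. The tubulin list means were -0.14, -0.22 and 0.028 in labelled KO arrays 1 to 3 and 0.031, -0.11 and 0.081 in the controls, so the groups overlapped. Oligodendrocyte markers (11 of 12 measured) had list means of 0.19, -0.22 and 0.45 in labelled KO arrays 1 to 3. In control arrays 1 to 3 these were -0.21, -0.19 and 0.40, so labelled KO array 2 was close to control arrays 1 and 2. The tubulin mean was nevertheless 0.031 in control array 1. The part of oligodendrocyte content in the tubulin values was not tested. Some tubulin genes, such as Tuba1a, Tuba1b and Tuba1c, are near-identical, so reads of single probe sets of such genes are uncertain. A further 7 probe sets carry several symbols and were left out of the 84. Their differences lay between -0.27 and -0.052, and 4 for Tuba1a, Tuba1b or Tuba1c were at -0.098 to -0.052.

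Stathmins bind tubulin dimers and regulate microtubule growth. Of the 4 genes, Stmn2, Stmn3 and Stmn4 were below 0, and none passed. Stmn2, a protein of growth cones and axon repair, read 11.65, 11.45 and 11.52 against 11.82, 11.91 and 12.10, with no overlap. Its difference was -0.40 ± 0.10 (SE; adjusted p = 0.131), 1.32-fold lower. Stmn3 read 11.03, 10.96 and 10.59 against 11.37, 11.22 and 11.23, also with no overlap. Its difference was -0.42 ± 0.12 (adjusted p = 0.184). A probe set of Stmn3 near 5.66, at the dim end of the arrays, was at 0.073 ± 0.12 (SE), and with the 2 probe sets averaged Stmn3 was at -0.17.

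Stmn4 read 10.49, 9.89 and 10.68 against 10.51, 10.49 and 10.85, at -0.26 ± 0.19 (SE; adjusted p = 0.593). Leaving out labelled KO array 2 gave -0.034, control array 3 gave -0.15 and labelled KO array 3 gave -0.43. Stmn1, the stathmin also made by dividing cells, was at 0.00025, with an interval from -0.21 to 0.21, and its second probe set at -0.0023. The stathmin list means were -0.16, -0.41 and -0.24 in the labelled KO arrays against -0.050, -0.069 and 0.12 in the controls. Beside them, excitatory neuron marker means were -0.20, -0.16 and -0.29 against -0.072, 0.020 and 0.052, though the medians of those markers overlapped. The part of neuron content in the stathmin values was not tested.

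The structural MAPs bind along the lattice and stabilise it. Map1a, the adult dendritic MAP1 protein, read 10.59, 10.71 and 10.69 against 11.28, 11.17 and 11.01, with no overlap. Its difference was -0.49 ± 0.096 (SE; adjusted p = 0.0780), and it kept an unadjusted p under 0.05 with each array left out in turn. With the dimmer genes left out of the test Map1a passed (adjusted p = 0.0451). Map1b, the form of growing axons, was at -0.037, with an interval from -0.22 to 0.15, and the difference between Map1a and Map1b was not tested.

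Map2, the classic dendrite protein, read 12.20, 12.06 and 12.50 against 12.46, 12.39 and 12.52, at -0.20 ± 0.12 (SE; adjusted p = 0.498). Labelled KO array 3 lay within the controls, and without it Map2 was at -0.32 (adjusted p = 0.152). Without labelled KO array 2 Map2 was at -0.10 (adjusted p = 0.814). Map7, an activator of kinesin-1, read 9.46, 9.55 and 9.54 against 9.23, 9.36 and 9.17, with no overlap, at 0.26 ± 0.087 (adjusted p = 0.217). Map4, the broadly expressed MAP, was at 0.039 and Map6, which protects microtubules from cold, at 0.088, each smaller than its SE of 0.12.

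The doublecortins bundle microtubules in migrating and growing neurons. Dcx, a marker of neuroblasts, read 9.42, 9.54 and 9.49 against 9.64, 8.98 and 8.90. Control array 1 was the highest of the 6 and the other controls the lowest. Its difference was 0.31 ± 0.18 (SE; adjusted p = 0.470), and without control array 1 it was 0.54 (adjusted p = 0.173). Without control array 3 it was 0.18 (adjusted p = 0.759), and with control array 2 left out 0.22 (adjusted p = 0.680). Dclk2 read 9.14, 9.24 and 9.21 against 9.67, 9.32 and 9.32, at -0.24 ± 0.11 (adjusted p = 0.376), and without control array 1 at -0.12. All 3 doublecortins were highest in control array 1, the array in which the olfactory bulb and neuroblast markers stood apart, and the part of that tissue in these values was not tested. Dclk1, a kinase with doublecortin domains, was at -0.10 ± 0.083 (SE), and at -0.063 without control array 1.

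**Figure D3:**
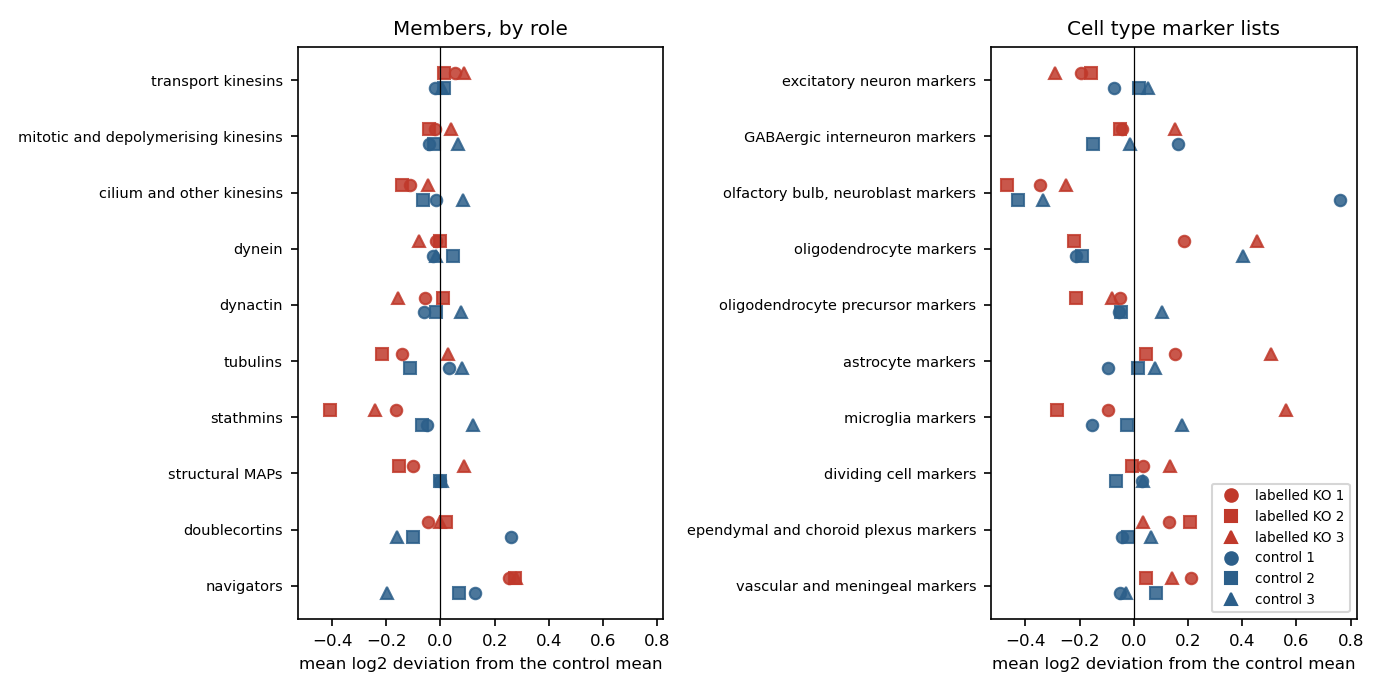
Mean log2 deviation from the control mean on each array (x axis; red labelled KO, blue control; circle, square and triangle are arrays 1, 2 and 3) for the members of each role (left) and for lists of cell type markers (right). The stathmin mean is lower on all 3 labelled KO arrays than on the controls, though the groups overlap in Stmn1 and Stmn4. Control array 1 is highest for doublecortins (0.26) and for olfactory bulb and neuroblast markers (0.76), and labelled KO array 3 is highest for astrocyte markers (0.51).

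A list of partner proteins that the symbol rule does not cover (adaptors, end-binding proteins, severing enzymes, folding cofactors, tubulin-modifying enzymes and nucleation factors) had 85 of 94 genes measured. None passed over all genes, where 0.281% of genes did, and at an unadjusted p under 0.05 there were 16 lower and 5 higher, where all genes gave 7.39% and 7.01%. Of the 85, these are 18.8% and 5.88%. The list median was -0.047, beside -0.0092 for all genes. The highest was Trak2, an adaptor that links mitochondria to kinesin and dynein, which read 11.39, 11.17 and 11.92 against 10.60, 10.78 and 10.69. Its difference was 0.80 ± 0.17 (SE; adjusted p = 0.0888). Mapre1, the end-binding protein EB1, read 10.74, 10.78 and 10.74 against 10.05, 10.24 and 10.29, at 0.56 ± 0.091 (adjusted p = 0.0531).

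Among the lower partners, Tubd1, the δ-tubulin of centrioles, read 6.54, 6.84 and 6.74 against 7.23, 7.46 and 7.48, at -0.68 ± 0.11 (SE; adjusted p = 0.0524). Agtpbp1, which trims glutamates from tubulin tails and whose loss kills Purkinje cells, read 10.64, 10.59 and 10.59 against 11.01, 11.09 and 11.13, at -0.47 ± 0.081 (adjusted p = 0.0565). Ttl, the ligase that puts the terminal tyrosine back on α-tubulin, read 9.87, 9.86 and 9.80 against 10.32, 10.33 and 10.19, at -0.44 ± 0.083 (adjusted p = 0.0775). In all 3 genes the groups were apart. Capza1, an actin-capping protein that also caps the dynactin filament, was at 0.28 ± 0.088 (adjusted p = 0.206).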

How the data were processed

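The deposited table gives log2 expression for 35557 probe sets on 6 arrays. The submitters' processing notes name RMA and limma but no versions, and the authors' normalization left the arrays with similar medians. A probe table from the platform annotation gave 21789 rows 1 gene symbol, and symbols were updated through gene identifiers of assembly GRCm38.p6. The probe set with the highest mean was kept per gene. Differences were fitted over all 19938 genes with limma 3.58.1 in R 4.3.3 (lmFit, eBayes, group as the only term), two-sided, with Benjamini-Hochberg adjustment over all genes. The fit had 4 residual and 4.89 prior degrees of freedom. The steps were tested on simulated data: 83.2% of genes changed by 1 and 34.2% of those changed by 0.5 were called over 19938 genes. The simulated noise was independent between genes, without the deviations that genes share on these arrays. It also took the observed spread of each gene, from few arrays, as its true spread. For both reasons the rates need not hold here. Arrays are labelled as biological replicates, and a p-value here sets the group difference against their spread, moderated by that of all genes.

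The members and lists were chosen with earlier results of these data known. Named were members at an unadjusted p under 0.05 (up to 10 in each direction), 28 fixed genes (27 measured; Klc2 was not analysed here), and from the partner list the 3 of smallest p in each direction. Other names are said to be chosen later. Alternatives were each array left out, a block for the array number, median centring, a second quantile normalization, the dimmer genes left out, probe sets averaged, a trended and robust prior, sex read from a Y-linked transcript, and an adjusted p under 0.1. An exact permutation test of 3 against 3 cannot go below 0.1, so none is given.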

Additional observations from a re-analysis of the deposited data

How the results depend on the processing

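All 15 members at an unadjusted p under 0.05 kept their direction in those of the 13 alternative fits that held them. Kif9 and Kif23 were not in the fit with the dimmer genes left out. The direction could hardly change. Except in Kif1c the groups did not overlap, so leaving out 1 array cannot change the sign, and some other fits return the same difference. Of the 15, 9 kept an unadjusted p under 0.05 in all 6 fits that leave out 1 array. The 15 were picked on the same arrays. The number of members past the threshold ranged from 0 to 1 with 1 array left out and that of all genes from 0 to 129. Limma called 0 members and 0 genes with sex as a covariate, 2 members (Nav3 and Map1a) and 178 genes with the dimmer genes left out, and 2 members and 320 genes at an adjusted p under 0.1. With 1 array left out there were 8 to 15 lower and 3 to 7 higher members at an unadjusted p under 0.05. The 3 in that range came without labelled KO array 2, and with sex as a covariate there were also 3 higher ones. The share of all genes at an unadjusted p under 0.05 was not counted in these fits. These counts, and the 9 above, are therefore not a result about the members. The median change of the members was lowest without labelled KO array 3, at -0.073, and nearest to 0 with array 2 of that group left out, at -0.015. Members near 0 changed sign: Stmn1 was at -0.0019 with median centring, -0.011 with a second quantile normalization, -0.0010 with probe sets averaged and -0.0071 with sex, Tuba1a at -0.025 with the second quantile normalization and -0.014 with sex, Map1b at 0.0028 with the second quantile normalization and Klc1 at 0.0001 with sex. With 1 array left out the ranges were -0.041 to 0.064 for Stmn1, -0.095 to 0.11 for Tuba1a, -0.059 to 0.054 for Klc1, -0.037 to 0.063 for Dctn1, -0.092 to 0.0056 for Kif5c, -0.084 to 0.14 for Map4, -0.027 to 0.18 for Map6 and -0.16 to 0.20 for Nav2. The causes were not tested.

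Array numbers were not taken to pair animals, since same-numbered arrays' deviations from their group means correlated at 0.090, 0.17 and 0.29, and not every pair exceeded 0.1. Each labelled KO array correlated best with its own number, but control array 1 did so with labelled KO array 2 (0.094). With the array number as a replicate block limma called 215 genes in place of 56, and 1 member. The number of arrays limits the precision, and no signal over background was used.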
